A study of Mus musculus with 12 samples.

Results

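Mitochondrial fission and fusion genes were described by their messenger RNA in Min6 cells, a mouse insulinoma line that makes and secretes insulin. The group holds 10 genes of the pathway, listed by symbol with earlier results of these data known, out of 24421 gene symbols counted. All 10 passed the filter on low counts that left 13102 genes for testing. They are 5 fission genes (Dnm1l, Fis1, Mff, Mief1 and Mief2), 3 fusion genes (Mfn1, Mfn2 and Opa1) and 2 genes of proteases that cleave OPA1 (Oma1 and Yme1l1). The 6 sh-ctrl libraries came from cells infected for 48 h with adenovirus carrying a control hairpin, and the 6 sh-Il22ra1 libraries from cells infected for 48 h with adenovirus against Il22ra1, the ligand-binding chain of the interleukin-22 receptor. Both groups are labelled WT and received palmitate (PA, 0.3 mM for 24 h), a saturated fatty acid, so every library shares virus and fatty acid; cells without them were not analysed here. The study is on 1 cell line. The labels do not give the number of hairpin sequences. They also do not say that libraries of a group came from separate cultures, so the p-values here reflect spread among libraries that may be technical.

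Mitochondria divide and merge continually. Division needs the dynamin-related GTPase DRP1, the product of Dnm1l, which is recruited from the cytosol by outer-membrane proteins (MFF, FIS1 and the MID proteins encoded by Mief1 and Mief2) and constricts the organelle. Fusion of the outer membranes is carried out by the mitofusins MFN1 and MFN2 and that of the inner membranes by OPA1, whose long and short forms are set by the proteases OMA1 and YME1L1. In beta cells this balance is tied to the respiration that drives insulin secretion, and saturated fatty acids are known to fragment the mitochondrial network.

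Reads in genes numbered 13108494 to 15887448 in the sh-ctrl and 14408576 to 15595603 in the sh-Il22ra1 libraries, and levels are in CPM, the reads of a gene in each 1e+06 assigned reads, TMM-scaled. The share of all reads with no alignment was 12.8% to 17.3% in sh-ctrl and 8.71% to 11.8% in sh-Il22ra1; its part in the results was not tested. Il22ra1 had 7 to 20 reads in each sh-ctrl library and 1 to 4 in each sh-Il22ra1 library (two-sided exact permutation test, p = 0.00216, the smallest that 6 against 6 libraries allow). All 10 beta-cell markers listed were expressed. In the test described below 6 were lower, 1 was higher and 3 did not pass, beside 26.5% lower and 25.4% higher among all tested genes. Their median log2 fold change was -0.27. Their sum ranged from 75245 to 114101 CPM in sh-ctrl and from 67463 to 76877 CPM in sh-Il22ra1. The 7 acinar markers summed to at most 1.04 CPM in any library, with Prss2, Amy2a5 and Ptf1a at 0 reads. The summed fibroblast markers ranged from 3.03 to 6.56 CPM in sh-ctrl and from 1.22 to 1.85 CPM in sh-Il22ra1, the endothelial markers from 3.51 to 7.76 and from 5.13 to 7.53 CPM, and the ductal markers, almost all Krt7, from 147 to 216 and from 210 to 240 CPM. The leukocyte markers ranged from 18.6 to 26.9 CPM and from 5.83 to 8.33 CPM and were nearly all Cd68, a lysosomal gene. The part of these markers in the results was not tested. By Dixon's criterion for outliers, sh-ctrl replicate 4 stood above the other 5 libraries of its group in 261 genes (1.99% of those tested) and sh-Il22ra1 replicate 1 in 136 (1.04%), the most in each group. On the low side the most were in sh-ctrl replicate 4 (158 genes, 1.21%) and sh-Il22ra1 replicate 2 (71 genes, 0.542%).

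Of the 10 genes, 6 were lower and 1 was higher in sh-Il22ra1, and 3 were not called, in edgeR's quasi-likelihood test at a Benjamini-Hochberg adjusted p of 0.05 over all tested genes. The falls took in both arms of the machinery: Fis1, Dnm1l and Mff of fission and Opa1, Mfn2 and Mfn1 of fusion, while the fission adaptor gene Mief1 rose. Across all tested genes 51.9% passed the same test, 26.5% lower and 25.4% higher, so a call as such was common in this comparison. The median log2 fold change of the 10 was -0.24, beside -0.0043 for all tested genes. The groups of libraries did not overlap for 4 of the 10 (Fis1, Mff, Mief1 and Opa1), beside 28.1% of all tested genes. In RNA from whole cultures, fewer cells of a kind and less RNA per cell cannot be told apart.

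**Figure D1:**
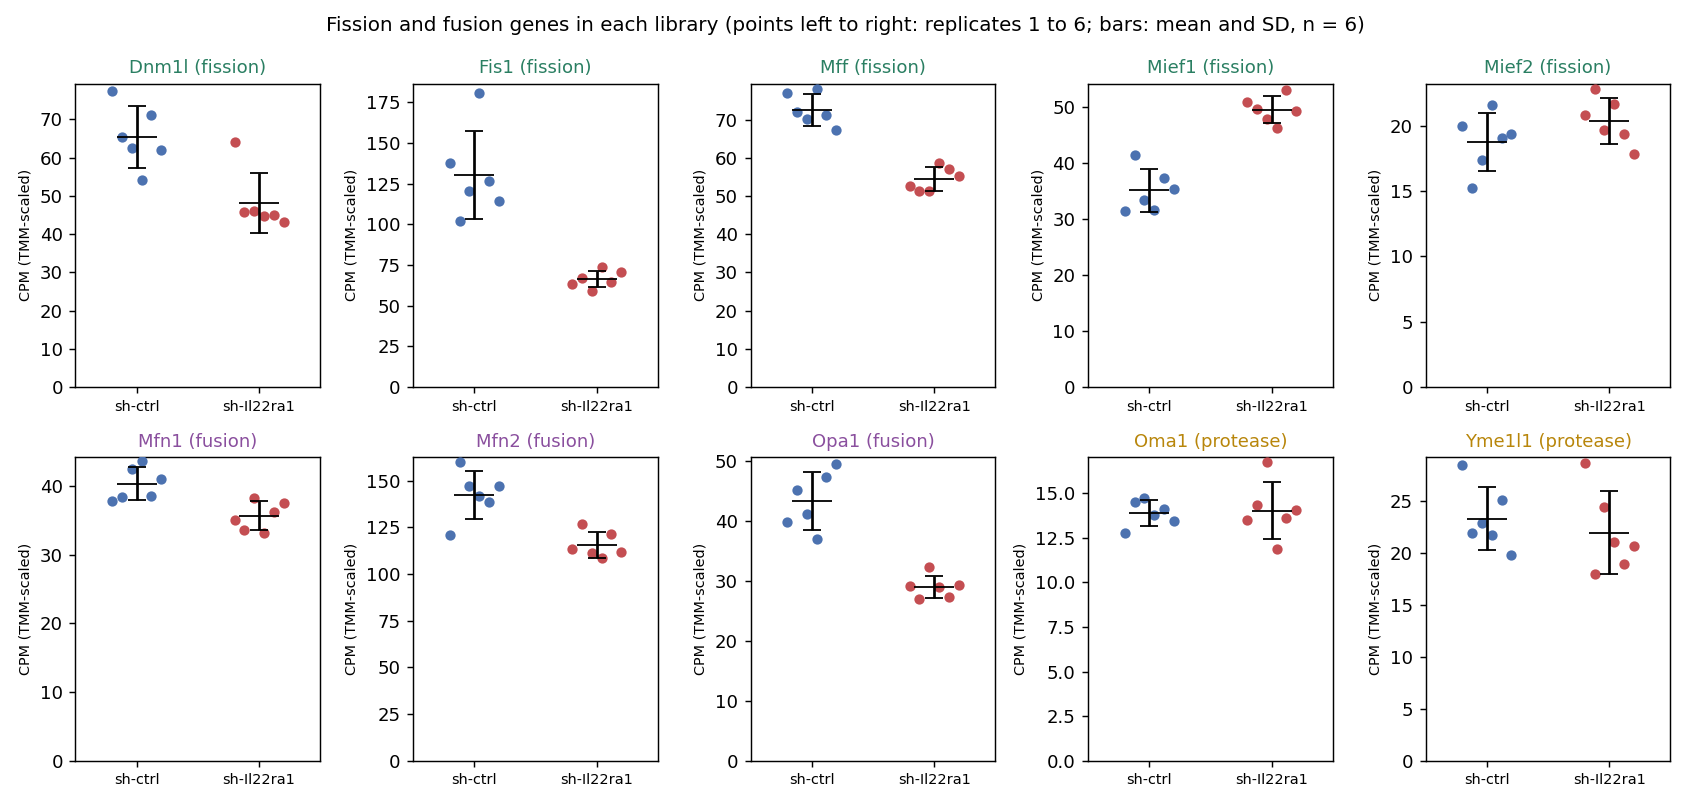
TMM-scaled CPM of each gene (vertical axes, from 0) in the 6 sh-ctrl and 6 sh-Il22ra1 libraries; points are libraries, bars are the mean and SD. Fis1 falls from a mean of 130 to 66.5 CPM with no overlap, Mief1 rises from 35.1 to 49.5 CPM, and Dnm1l has 1 sh-Il22ra1 library at 64.0 CPM above the other 5.

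Fis1, which encodes a tail-anchored outer-membrane protein of the fission machinery, fell the most. Its level ran from 102 to 180 CPM in sh-ctrl with a median of 124, and from 59.3 to 73.6 CPM in sh-Il22ra1 with a median of 65.8. Every sh-Il22ra1 library lay below every sh-ctrl library, and the highest sh-ctrl library was replicate 4. The means were 130 CPM ± 27.2 and 66.5 CPM ± 5.20 (SD, n = 6 each), a 1.96-fold fall (log2 fold change -0.97, SE 0.105; edgeR adjusted p = 4.53e-07). It ranked as the fall number 512 in size among the 3472 genes called lower. The fall was 0.82 on the log2 scale without sh-ctrl replicates 1 and 4. The gene (GRCm38, chr5:136953275-136966234, plus strand) shares no exon base with another annotated gene.

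The 250 bases before the annotated start are shown for the members with the largest fall (Fis1), the second smallest p (Opa1) and the only rise (Mief1), as RefSeq gives them on GRCm38.p6. All are on the plus strand and written 5′ to 3′, at chr5:136953025-136953274, chr16:29579084-29579333 and chr15:80233830-80234079, and capitals mark matches to the motifs searched.
Fis1: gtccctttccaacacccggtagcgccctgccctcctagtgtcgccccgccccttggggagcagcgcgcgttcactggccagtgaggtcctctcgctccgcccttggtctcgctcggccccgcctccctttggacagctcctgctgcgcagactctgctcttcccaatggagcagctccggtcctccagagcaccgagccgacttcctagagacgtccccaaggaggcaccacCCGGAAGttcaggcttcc
Opa1: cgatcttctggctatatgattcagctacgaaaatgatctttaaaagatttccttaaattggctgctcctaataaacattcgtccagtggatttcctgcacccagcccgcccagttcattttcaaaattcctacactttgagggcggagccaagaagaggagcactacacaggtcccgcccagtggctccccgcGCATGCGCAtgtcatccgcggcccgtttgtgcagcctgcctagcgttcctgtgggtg
Mief1: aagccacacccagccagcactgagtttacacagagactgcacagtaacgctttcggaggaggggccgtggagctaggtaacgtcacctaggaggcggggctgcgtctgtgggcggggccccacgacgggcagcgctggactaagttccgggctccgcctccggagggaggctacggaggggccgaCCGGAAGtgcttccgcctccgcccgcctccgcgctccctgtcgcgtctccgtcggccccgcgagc
All 10 members had such a window, 15 in all since some have several starts, and 6 motifs were searched on both strands. Fis1 has another start, whose window (chr5:136961827-136962076) held no match and is not shown. The ETS-factor core CCGGAAG was in windows of 4 members, the falling Fis1 (18 to 12 bases before the start) and Mfn1, the rising Mief1 (65 to 59 bases before it), and Yme1l1, which did not pass the test. For Mief1, Mfn1 and Yme1l1 the RefSeq start lies past the gene start given below from GENCODE (80234018 for Mief1). The end of each of these windows thus falls inside the gene. Counted by window, CCGGAAG was in 4 of the 15 windows of the members and in 6.91% of all 32851 windows. The NRF1 motif TGCGCATGC was in that of Opa1, on the minus strand 57 to 49 bases before the start, and in 1.28% of all windows. The E-box CACGTG was in that of Mief2 and in 6.02% of all. The STAT motif TTCNNNGAA, the ERR half-site AAGGTCA and the CRE TGACGTCA, in 7.02%, 4.08% and 1.55% of all windows, were in none of the 15. These matches are letters in a window and do not show binding.

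Dnm1l, the gene of DRP1 itself (chr16:16312230-16358959, minus strand), was lower in sh-Il22ra1. Its level ran from 54.1 to 77.5 CPM in sh-ctrl with a median of 63.9, and from 43.3 to 64.0 CPM in sh-Il22ra1 with a median of 45.4. The groups overlapped through sh-Il22ra1 replicate 1 alone, since the other 5 reached at most 46.1 CPM. The log2 fold change was -0.44 (SE 0.0978; edgeR adjusted p = 0.000960), and -0.54 without that replicate. Replicate 1 was the highest library of both groups for Dnm1l and for Yme1l1, as for 5.46% of all tested genes. Of the exon bases of Dnm1l, 4.67% are shared with an antisense transcript.

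Mff (chr1:82724890-82752394, plus strand) encodes a main adaptor that recruits DRP1 to the outer membrane. It ran from 67.3 to 78.1 CPM in sh-ctrl with a median of 71.5, and from 51.3 to 58.7 CPM in sh-Il22ra1 with a median of 54.0. Both ranges were narrow and did not overlap. The means were 72.6 CPM ± 4.12 and 54.4 CPM ± 3.08 (SD, n = 6 each). The log2 fold change was -0.42 (SE 0.0597; edgeR adjusted p = 1.37e-05).

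The genes of the MID adaptors, which can hold DRP1 in an inactive state as well as recruit it, did not fall. Mief1 (MID51; chr15:80234018-80253371, plus strand) ran from 31.5 to 41.4 CPM in sh-ctrl with a median of 34.4, and from 46.2 to 53.1 CPM in sh-Il22ra1 with a median of 49.5. All 6 sh-Il22ra1 libraries were above the highest sh-ctrl library, a 1.41-fold rise (log2 fold change 0.49, SE 0.0724; edgeR adjusted p = 1.68e-05). Of its exon bases, 2.63% are shared with another coding gene on the same strand. Mief2 (MID49; chr11:60728398-60732951, plus strand) ran from 15.2 to 21.6 CPM and from 17.8 to 22.9 CPM, with overlapping groups and a log2 fold change of 0.12 (95% interval -0.070 to 0.31) that did not pass. With offsets for transcript length and GC content it gave 0.19 and passed (edgeR adjusted p = 0.0399). The median of all tested genes also moved up under these offsets, from -0.0043 to 0.043, and the part of that shift in the call was not tested.

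Opa1 (chr16:29579334-29654884, plus strand), the inner-membrane fusion GTPase gene whose product also shapes cristae, had the largest fall of the fusion genes. It ran from 37.1 to 49.5 CPM in sh-ctrl with a median of 43.2, and from 27.1 to 32.3 CPM in sh-Il22ra1 with a median of 29.1. No sh-Il22ra1 library reached the lowest sh-ctrl library. The means were 43.4 CPM ± 4.80 and 29.0 CPM ± 1.90 (SD, n = 6 each), a 1.49-fold fall (log2 fold change -0.58, SE 0.0776; edgeR adjusted p = 6.03e-06).

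Both mitofusin genes were lower by smaller amounts. Mfn2 (chr4:147873599-147904704, minus strand), whose product also tethers mitochondria to the endoplasmic reticulum, ran from 121 to 160 CPM in sh-ctrl with a median of 144, and from 109 to 127 CPM in sh-Il22ra1 with a median of 113. The groups overlapped because sh-ctrl replicate 1 lay below the 2 highest sh-Il22ra1 libraries. Its log2 fold change was -0.30 (SE 0.0652; edgeR adjusted p = 0.000759) and -0.19 with the length and GC offsets, which kept the call (adjusted p = 0.00207). Mfn1 (chr3:32529465-32579239, plus strand) ran from 37.9 to 43.6 CPM and from 33.1 to 38.3 CPM, with a slight overlap and a log2 fold change of -0.18 (SE 0.0643; edgeR adjusted p = 0.0269). That call depended on single libraries and settings: adjusted p reached 0.0594 without sh-ctrl replicate 3, 0.0598 and 0.0673 without sh-Il22ra1 replicates 2 and 4, 0.0502 with no low-count filter and 0.204 with the offsets (log2 fold change -0.10).

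Neither protease gene passed. Oma1 (chr4:103313812-103371868, plus strand), whose product cleaves OPA1 under stress, ran from 12.8 to 14.7 CPM in sh-ctrl and from 11.8 to 16.7 CPM in sh-Il22ra1 (log2 fold change 0.013, 95% interval -0.17 to 0.20). Yme1l1 (chr2:23156369-23199260, plus strand), whose product cleaves OPA1 constitutively, ran from 19.8 to 28.4 CPM and from 18.0 to 28.6 CPM (log2 fold change -0.085, 95% interval -0.32 to 0.15). In both genes the sh-ctrl range lay within the sh-Il22ra1 range. A miss of the threshold does not show equal levels.

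**Figure D2:**
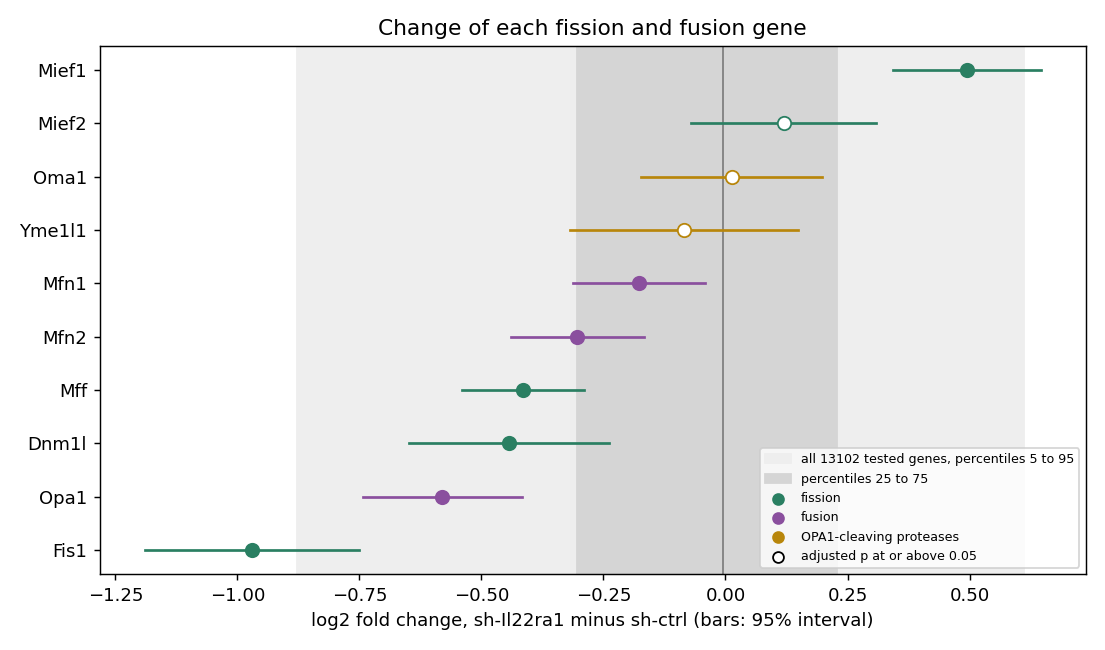
Log2 fold change of each gene, sh-Il22ra1 minus sh-ctrl (horizontal axis), with 95% intervals; grey bands give percentiles of all tested genes. Fis1 (-0.97) lies below percentile 5 of all tested genes (-0.88), Mief1 (0.49) below percentile 95 (0.61), and open points are the 3 genes that did not pass.

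Transcript length moved with the comparison as a whole. Among 3 equal groups of tested genes by length of the longest coding transcript, the median log2 fold change was 0.10 in the shortest and -0.13 in the longest. Fis1, Mff and Oma1 were in the shortest group, and Mief1, Mfn1, Mfn2, Opa1 and Yme1l1 in the longest. With offsets for length and GC content, the falls of Fis1 and Mff were -1.05 and -0.50 and the rise of Mief1 was 0.62, each larger than without them, while Opa1 gave -0.42 and Dnm1l -0.38, each smaller. All 5 still passed edgeR's test under these offsets. The offsets also moved the median log2 fold change of all tested genes, from -0.0043 to 0.043, so changes in size are not those of single genes alone.

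Levels of different genes were compared as RPKM, the CPM divided by summed exon length in kilobases. They spanned from 76.0 RPKM ± 15.9 for Fis1 to 2.91 RPKM ± 0.380 for Yme1l1 in sh-ctrl (SD, n = 6 each). Fis1 was followed by Mfn2 (27.4 RPKM), Dnm1l (12.6), Mff (7.43), Mief2 (6.91), Mfn1 (6.59), Oma1 (6.47), Opa1 (5.50) and Mief1 (4.33). Mff, Mief2, Mfn1 and Oma1 differed from their neighbours among them by less than the sum of the SDs. In sh-Il22ra1, Fis1 (38.7 RPKM ± 3.03) and Mfn2 (22.2 RPKM ± 1.33) kept the top places and Yme1l1 (2.74 RPKM) the last. Mief1 (6.10 RPKM) stood above Mfn1 (5.82), Mff (5.57) and Opa1 (3.68) there, though from Dnm1l down to Mff no neighbours in the order differed by more than the sum of their SDs. The place of Mff rests on the length used: its summed exons hold 9757 bases and its longest coding transcript 2087, which would put it at 34.7 RPKM ± 1.97 in sh-ctrl and 26.0 RPKM ± 1.48 in sh-Il22ra1. On that length Mfn2 stood at 32.8 RPKM ± 2.95 and 26.6 RPKM ± 1.59 (SD, n = 6 each), so Mff and Mfn2 differed by less than the sum of their SDs in both groups. Other places rest on the length too: by longest coding transcript, Opa1 and Yme1l1 both stood at 4.66 RPKM in sh-Il22ra1.

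**Figure D3:**
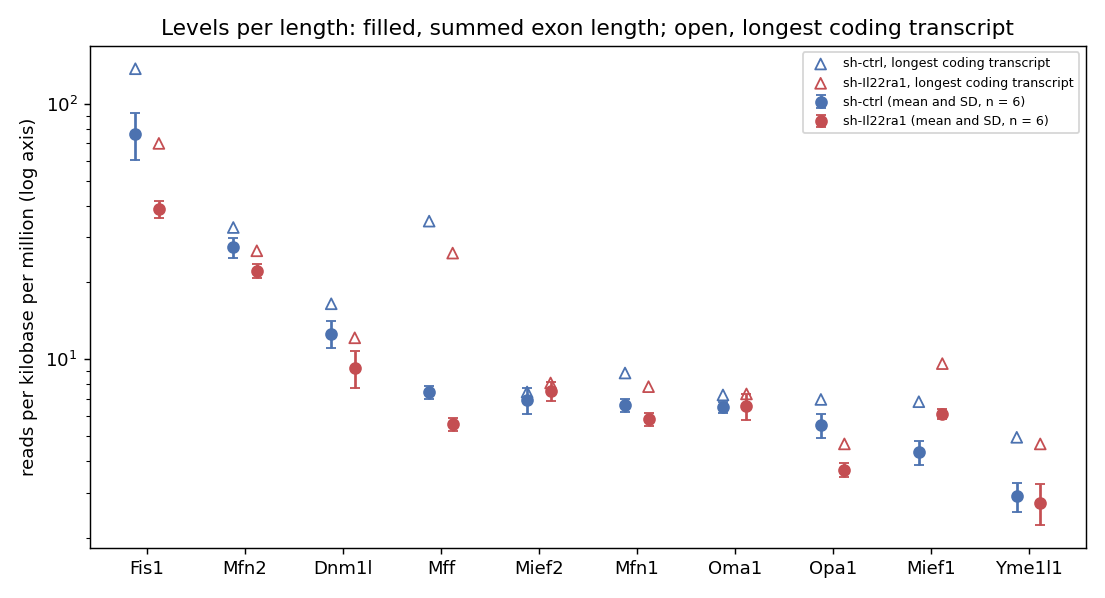
RPKM (log axis) for each gene in sh-ctrl and sh-Il22ra1; filled points with SD bars use summed exon length (n = 6), open triangles the longest coding transcript. By summed exon length Fis1 and Mfn2 lead in both groups, and Mff moves from 7.43 to 34.7 RPKM in sh-ctrl when the length is changed.

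Ratios of reads between pairs of genes within a library do not depend on scaling. The 5 compared were chosen after the values were seen, so their p-values add no evidence to the tests of single genes. Opa1 had 2.69 to 3.69 reads per Oma1 read in sh-ctrl, with a median of 3.12, and 1.89 to 2.46 in sh-Il22ra1, with a median of 2.05. These groups did not overlap, and the mean log2 ratio differed by -0.58, the size of the fall of Opa1 itself. The two-sided exact permutation test gave p = 0.00216, the smallest that 6 against 6 libraries allow (adjusted p = 0.0108 over the 5 ratios). Against the other protease, Opa1/Yme1l1 had a median of 1.84 in sh-ctrl and 1.40 in sh-Il22ra1, a log2 difference of -0.48 (exact permutation adjusted p = 0.0144). Its groups overlapped through sh-ctrl replicate 1. Fis1/Dnm1l went from a median of 1.81 to 1.45, a log2 difference of -0.50 (exact permutation adjusted p = 0.0144). Without sh-ctrl replicate 4, the highest library, that difference was -0.35 (exact permutation adjusted p = 0.0216), and without sh-ctrl replicates 1 and 4 it no longer passed (adjusted p = 0.0655 in the exact permutation test).

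Paralogue ratios were less clear. Mief1/Mief2 ran from 1.47 to 2.72 in sh-ctrl and from 2.13 to 2.76 in sh-Il22ra1, a log2 difference of 0.38 (exact permutation p = 0.0281, adjusted p = 0.0352). That call lay near the threshold. It was lost without any 1 of sh-ctrl replicates 1, 3, 4 and 6 or sh-Il22ra1 replicates 1, 3, 5 and 6. The exact permutation p, adjusted over the 5 ratios, was then 0.0514 to 0.0785. The log2 difference itself ran from 0.31 to 0.49 when any 1 of the libraries was left out. Without sh-ctrl replicates 1 and 4 together the difference was 0.23 (exact permutation adjusted p = 0.114). Mfn1/Mfn2 ran from 0.240 to 0.313 and from 0.265 to 0.344, a log2 difference of 0.12 that did not pass (exact permutation p = 0.152). Without sh-Il22ra1 replicate 2 it was 0.17 (exact permutation adjusted p = 0.0368).

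**Figure D4:**
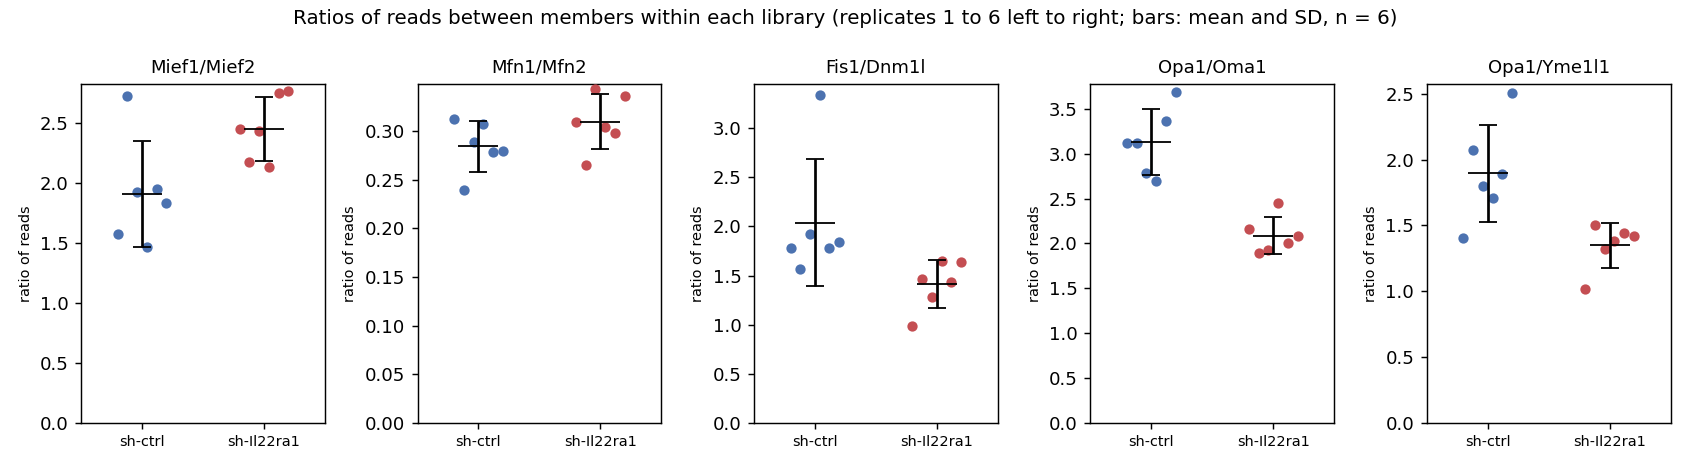
Ratio of reads between pairs of genes within each library (vertical axes, from 0), with the mean and SD of the 6 libraries of each group. The Opa1/Oma1 ratio separates the groups (2.69 or more against 2.46 or less); 1 sh-ctrl library stands out at 3.34 for Fis1/Dnm1l.

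Other genes of mitochondrial dynamics went both ways, as did all tested genes (25.4% higher and 26.5% lower). Among 16 further fission factors and regulators of DRP1, 6 were higher, 5 lower and 5 did not pass, with a median log2 fold change of -0.0023. Mtfr1l, a fission regulator (-0.52, SE 0.0641), and Slc25a46, an outer-membrane carrier-family protein tied to fission and to OPA1 (-0.49, SE 0.0654), fell, and Pgam5, a mitochondrial phosphatase that acts on DRP1, rose (0.39, SE 0.0502). Of 9 genes of mitochondrial transport and contacts with the endoplasmic reticulum, 2 fell (Vdac1, -0.30; Trak2, -0.34), 1 rose (Rmdn3, 0.19) and 6 did not pass, at a median of -0.051. The call of Rmdn3 ended without sh-Il22ra1 replicate 6 (edgeR adjusted p = 0.0555).

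Genes of cristae junctions, mitochondrial proteases and phospholipids were higher where they passed, with 1 exception, beside 25.4% higher and 26.5% lower among all tested genes. In the list of the MICOS complex and its outer-membrane partners, which hold cristae junctions, 6 of 10 rose, none fell and 4 did not pass, at a median log2 fold change of 0.31; Mtx1 (0.49, SE 0.0666), Immt, the core MICOS subunit (0.31, SE 0.0588), and Samm50 (0.31, SE 0.0595) rose. Of 10 prohibitins and mitochondrial proteases, 5 rose, 1 fell (Afg3l1, -0.14, named because it was the only fall) and 4 did not pass, at a median of 0.18. Spg7, the paraplegin subunit of an inner-membrane protease, rose from 127 CPM to 197 CPM (0.64, SE 0.0622), and Phb, a prohibitin that scaffolds such proteases (0.41), and Htra2 (0.39) rose too. Of 8 tested genes of mitochondrial phospholipids, 5 rose, none fell and 3 did not pass, at a median of 0.24, among them Crls1, the cardiolipin synthase (0.55, SE 0.0804), Triap1 (0.47) and Tamm41 (0.25).

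Of 11 tested mitophagy genes, 3 rose, 1 fell and 7 did not pass, beside 25.4% higher and 26.5% lower among all tested genes. Their median log2 fold change was 0.015. Among the rises, the prohibitin gene Phb2 was also counted in the list of prohibitins and proteases and is named for that. Usp30, a deubiquitinase that opposes mitophagy, fell (-0.43, SE 0.0586). Park2, the gene of the ubiquitin ligase parkin, rose (0.80, SE 0.174) at a low level of 2.28 CPM in sh-ctrl and 3.99 CPM in sh-Il22ra1, and Bcl2l13, a receptor for mitophagy, rose (0.34). Of 10 genes taken as markers of mitochondrial content, 5 rose, 1 fell and 4 did not pass, at a median of 0.16: Atp5b, an ATP synthase subunit, rose (0.36) and Cs, citrate synthase, fell (-0.22). The median of -0.24 of the 10 fission and fusion genes stood below the medians of these 7 further mitochondrial lists, which ran from -0.051 to 0.31, and close to that of the 10 beta-cell markers (-0.27, with the same counts of 6 lower and 1 higher). A lower median was thus not particular to the fission and fusion genes, and none of these differences was tested. All these medians are without the length and GC offsets, and the part of transcript length in them was not tested.

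**Figure D5:**
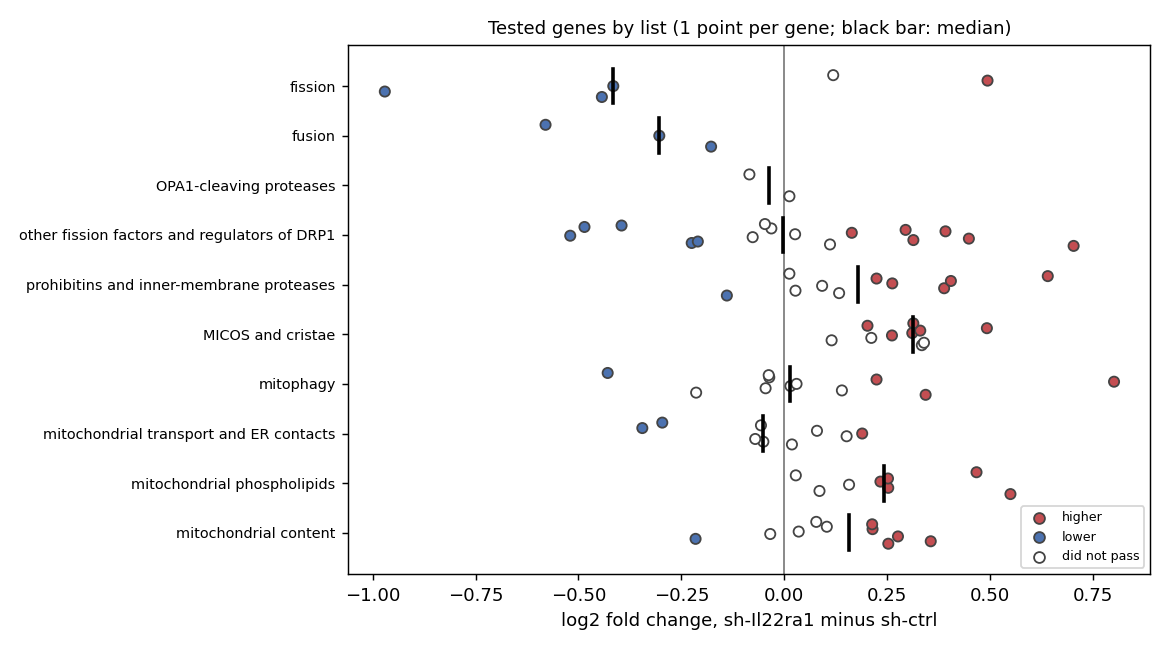
Log2 fold change, sh-Il22ra1 minus sh-ctrl (horizontal axis), of every tested gene in the lists (1 point per gene, coloured by call; black bars are medians). Points of the fission and fusion lists lie mostly left of 0, while the MICOS list (median 0.31) lies wholly to the right.

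The genes whose log2 CPM over the 12 libraries was most like that of the members with the smallest p were found by Pearson's r, as a description that includes the difference between groups. For Fis1 they were Cuedc2 (r = 0.996), Dpf1 (0.989), Trib3 (0.988), Dtx3 (0.988) and Rnf187 (0.987). For Opa1 they were Rasgrf2 (r = 0.983), Pde3b (0.983), Ccdc6 (0.982), Pde1c (0.979) and Msi2 (0.976). After the group means were removed, r was 0.914 to 0.970 for the 5 genes of Fis1 and 0.848 to 0.914 for those of Opa1. These genes were picked for the highest r in the same libraries, so high values within groups follow in part from the choice. Fis1 was highest in sh-ctrl replicate 4 (180 CPM, group median 124), and the part of that library in r was not tested. No gene was shared by the 2 sets of 5.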

How the data were processed

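Messenger RNA was sequenced as paired ends from 6 sh-ctrl and 6 sh-Il22ra1 samples, grouped by the sample titles (GFP and shRNA); in sh-Il22ra1 replicates 2 to 6 the treatment label counts the gene name upward, and the title decided the group. The deposited files hold whole-number read counts per gene symbol; HISAT2 2.0.5, HTSeq and mm10 are named in the submitters' processing notes, while annotation and strand setting are not given in sources used here. The 5 rows that name no gene, 23.5% to 31.7% of a file, were left out. A deposited CPM table of the same reads was not used.

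The test was edgeR 4.0.16 (R 4.3.3): filterByExpr (minimum count 10, total 15), TMM, a quasi-likelihood fit across all genes, two-sided, with Benjamini-Hochberg adjustment over 13102 genes at 0.05. An SE is the log2 fold change divided by the square root of F. The code was tested on simulated data. Ratios and Il22ra1 used exact permutation tests. Positions and lengths came from GENCODE M21 on GRCm38 (mm10), and 96.5% of tested genes had a length. The members and lists were chosen with earlier results of these data known. Named genes were the 10 members, Il22ra1, up to 3 called genes of each further list with the smallest p, and the 5 genes most like each of the 2 members with the smallest p. The values of 1 gene that this rule names are not reported here. Within groups every pair of libraries differed beyond sampling noise (chi-square of at least 3.95 per degree of freedom). Alternatives were DESeq2 1.42.0, voom in limma 3.58.1, scaling by RLE or upper quartiles, other filters, leaving out libraries and a replicate block; the length and GC offsets (splines of 4 degrees of freedom), transcript lengths and ratios were added after seeing the data.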

Additional observations from a re-analysis of the deposited data

Results flagged for a closer look

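Dnm1l stood at 64.0 CPM in sh-Il22ra1 replicate 1, far above the next library of its group at 46.1 CPM. The Fis1/Dnm1l ratio was 3.34 in sh-ctrl replicate 4, where the next was 1.93, and the difference between groups was -0.35 on the log2 scale without that library (exact permutation adjusted p = 0.0216 over the 5 ratios). The Opa1/Yme1l1 ratio was 1.02 in sh-Il22ra1 replicate 1, below the next at 1.32. Each gap passed Dixon's 95% criterion, which chance gives in about 1 group of 20, and 10 genes and 5 ratios were looked at in 2 groups.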

How the results depend on the processing

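Fis1, Dnm1l, Mff, Mief1, Mfn2 and Opa1 kept their direction and their call under all 21 alternatives; Mfn1 lost its call under 5 and Mief2 gained one under 1, as given above. With length and GC offsets 2 members were higher and 5 lower, and over all genes 4362 and 3271, against 3323 and 3472 without them. The median log2 fold change of all tested genes was 0.043 with the offsets and -0.0043 without them. The genes of further lists named for their smallest p kept their direction and, save Rmdn3, their call, but sizes moved both ways with the offsets. Triap1 gave 0.33, Tamm41 0.16, Usp30 -0.27 and Trak2 -0.19, each smaller, and Mtx1 0.58 and Bcl2l13 0.53, each larger. Bcl2l13 gave 0.19 without sh-ctrl replicates 1 and 4. When 1 library was left out, 1 member was higher and 5 to 6 were lower, and over all genes 2881 to 3521 were higher and 3239 to 3970 lower. Oma1, near 0 throughout, changed sign when 1 library was left out (-0.044 to 0.058), at a mean of at least 1 CPM (-0.0020), without sh-ctrl replicates 1 and 4 (-0.033) and with the offsets (-0.081); Yme1l1 did so with the offsets (0.045). None of these values passed. Replicate numbers are not said to pair samples, and deviations of same-numbered samples correlated at -0.033 to 0.23; with a replicate block 3463 genes were higher and 3566 lower, and among the members 1 and 6. Counts of 166 to 2466 reads per member and library limit small changes. RLE and upper-quartile scaling moved no call among the members. Strand use in counting is not known, so reads shared with overlapping genes cannot be told apart.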
